A study of Mus musculus with 6 samples.

Results

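mmu-miR-17-5p, mmu-miR-20a-5p, mmu-miR-20b-5p, mmu-miR-93-5p, mmu-miR-106a-5p, mmu-miR-106b-5p, mmu-miR-18a-5p and mmu-miR-18b-5p are 5p strands of mouse miRNAs. These 8 are listed as guide strands, and all were found by name among the 1978 mature miRNAs counted. Below, guide strand is the label of that list only, since mmu-miR-18b-5p was the minor strand of its hairpin in both miRNA libraries. The prefix mmu, for mouse, is left out below. The counts came from RNA pulled down with AGO2, an Argonaute protein, which loads miRNAs and binds target RNAs through them. The cells had the genotype Spy3-Ago2 and were embryonic stem cells of the mouse, and E14, a name of a common line of such cells, stands at the start of each library name. They were grown on gelatin in medium that held fetal bovine serum and the cytokine LIF, which prevents differentiation, and Spy3-AGO2 was captured with HaloTag-SpyCatcher3 on a resin. Of the 6 libraries, which all share this genotype and culture, the 2 miRNA libraries carry the counts used here, and 1 peak list stands for the target libraries. No untagged control pull-down of miRNAs and no miRNA counts from input were analysed here.

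A miRNA finds its targets mainly through its seed, bases 2 to 8 of the mature strand. The miR-17 group (miR-17, miR-20a, miR-20b, miR-93, miR-106a and miR-106b) and the miR-18 pair arose by duplication of an ancestral cluster, and their genes lie in 3 clusters, each transcribed as a single long precursor. The miR-17-92 cluster is known for driving proliferation and for its role as an oncogene, and the miR-17 group represses inhibitors of the step from G1 to S phase in embryonic stem cells. The miR-106b-25 cluster lies in an intron of Mcm7, a gene for a replication helicase subunit.

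The sequences below, from the RefSeq miRNA annotation of GRCm38.p6, show what the 8 guide strands share and where they differ. All 8 names had an entry, and capitals mark the seed. The first 6 carry the seed AAAGUGC and the last 2 the seed AAGGUGC.
miR-17-5p: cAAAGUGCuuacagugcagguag
miR-106a-5p: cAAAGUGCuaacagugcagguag
miR-106b-5p: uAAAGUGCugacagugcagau
miR-20a-5p: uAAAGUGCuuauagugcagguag
miR-20b-5p: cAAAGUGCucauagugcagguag
miR-93-5p: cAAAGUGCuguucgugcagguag
miR-18a-5p: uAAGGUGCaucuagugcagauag
miR-18b-5p: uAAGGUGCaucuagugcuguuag

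Positions are counted from 1 at the 5′ end, and each change gives the base of the first-named miRNA before the position. miR-17-5p and miR-106a-5p, the closest pair, differ by U10A alone. miR-20a-5p and miR-20b-5p differ by U1C and U10C, and miR-18a-5p and miR-18b-5p by A18U and A20U. The seeds of the miR-17 group and the miR-18 pair differ by A4G. No other name in the RefSeq table has the same full sequence as any of the 8. miR-17-5p also differs by 2 bases from miR-20a-5p and from miR-20b-5p, as does miR-20b-5p from miR-106a-5p. No source used here says how the authors assigned reads that match several names. The division of counts within these close pairs is therefore uncertain, most of all between miR-17-5p and miR-106a-5p.

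On GRCm38.p6, the same assembly as mm10, the hairpins of miR-17, miR-18a and miR-20a follow each other in this order on the plus strand at chr14:115043671-115044263. Those of miR-106a, miR-18b and miR-20b lie in the matching order on the minus strand at chrX:52742113-52742567. Those of miR-106b and miR-93 lie on the minus strand at chr5:138165523-138165818, within the annotated span of Mcm7. Below, the miR-17 position therefore means miR-17, miR-106a and miR-106b, the miR-20 position means miR-20a, miR-20b and miR-93, and the miR-18 position is filled in the 2 larger clusters only.

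The totals were 12562727 counts for replicate 1 of the miRNA libraries and 22908172 for replicate 2, and whether these were separate cultures is not in the labels, so their spread may be technical. Embryonic stem cell miRNAs of the miR-290 cluster were abundant, with its 5 listed products at 31.1% ± 0.19 of the counts (SD, n = 2 here and below). miR-290a-5p alone held 23.8% ± 0.40. The miR-302 cluster, also known from pluripotent cells, was scarce, and its highest listed strand, miR-302a-3p, held 0.0141% ± 0.0026. The 9 listed let-7 strands, which rise on differentiation, summed to 0.0171% ± 0.0024. Shares are percentages of all counts in a library. Wilson intervals (95%) and exact intervals cover counting error only, since reads of amplified libraries need not be independent molecules.

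miR-20a-5p led the 8 guide strands, with 127681 counts in replicate 1 and 226386 in replicate 2. Its share was 1.02% (Wilson interval 1.01 to 1.02) and 0.988% (0.984 to 0.992), or 1.00% ± 0.020, the 15th place of 1978 by mean share. miR-17-5p, the founding member of the family, followed with 0.932% and 0.882%. Both come from miR-17-92, and they stood above the other 6 in each replicate. miR-20b-5p held 0.679% in replicate 1 and 0.638% in replicate 2. miR-106a-5p held 0.656% and 0.612%, just under miR-20b-5p in both. This pair comes from the X-linked cluster, and its members differed by less than the SD of their shares. Within each library, miR-20b-5p over miR-106a-5p was 1.035 in replicate 1 and 1.042 in replicate 2. miR-106b-5p held 0.483% in replicate 1 and 0.489% in replicate 2. miR-18a-5p held 0.455% and 0.503%, so these 2 changed order between the replicates. miR-93-5p held 0.306% and 0.289%. miR-18b-5p was far below the rest, with 2437 and 4729 counts, or 0.0194% (0.0186 to 0.0202) and 0.0206% (0.0201 to 0.0212). It took place 183 by mean share. Of the 7 neighbouring pairs in this order, 5 differed by more than the larger SD of the pair.

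**Figure D1:**
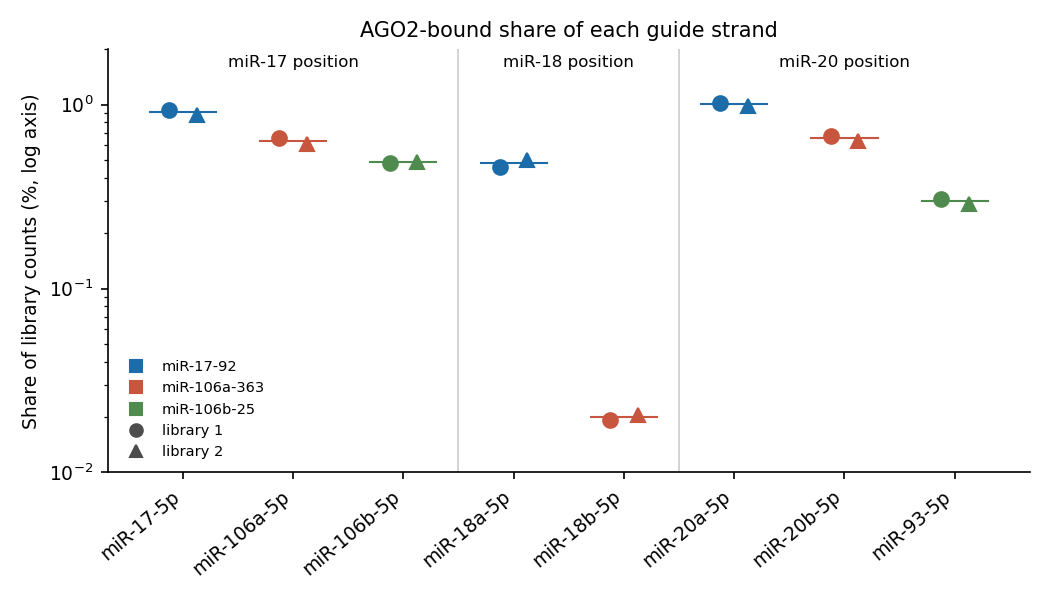
Share of the library counts of each guide strand (percent, log axis) by position in the cluster. Circles are replicate 1, triangles replicate 2, lines the mean, and colours the cluster; at each position the miR-17-92 strand stands highest, and miR-18b-5p lies near 0.02% while the others lie between 0.289% and 1.02%.

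The strands next to each guide strand by mean share set these levels in context. miR-20a-5p lay between miR-183-5p at 1.04% ± 0.50 and miR-27a-3p at 0.958% ± 0.060. miR-17-5p lay between miR-294-5p at 0.924% ± 0.049 and miR-96-5p at 0.895% ± 0.23. miR-20b-5p was flanked by miR-135b-5p at 0.663% and miR-23a-3p at 0.648%, and miR-106a-5p by miR-130a-3p at 0.644% and miR-24-3p at 0.606%. miR-294-3p at 0.518% stood above miR-106b-5p, and miR-195a-5p at 0.472% below miR-18a-5p. miR-93-5p lay between miR-434-3p at 0.312% and miR-125a-5p at 0.272%, and miR-18b-5p between miR-497a-5p at 0.0200% and miR-192-5p at 0.0199%. Several of these neighbours varied more between replicates than the guide strands did, so the exact places are not settled.

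The comparison of paralogs asked how much the guide strands of each cluster contributed to the AGO2 counts. Other strands of these clusters, such as miR-19b-3p and miR-92a-3p, are not in these sums. The 3 guide strands of miR-17-92 held 2.404% of replicate 1 and 2.37% of replicate 2, a mean of 2.39% ± 0.021. The 3 strands of miR-106a-363 held 1.35% and 1.27%, or 1.31% ± 0.059, and the 2 strands of miR-106b-25 held 0.790% and 0.778%, or 0.784% ± 0.0080. Together the 8 held 4.48% ± 0.089 of the counts. As a division of these counts, which does not depend on depth or scaling, miR-17-92 gave 52.9% (Wilson interval 52.7 to 53.0) in replicate 1 and 53.7% (53.6 to 53.8) in replicate 2. The X-linked cluster gave 29.8% and 28.7%, and miR-106b-25 gave 17.4% and 17.6%. The order of the 3 clusters was the same in both replicates, and the gaps were larger than the spread between them. That spread leaves out the uncertain division of reads between close names of miR-17-92 and miR-106a-363. The order of these 2 clusters is therefore as counted only.

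**Figure D2:**
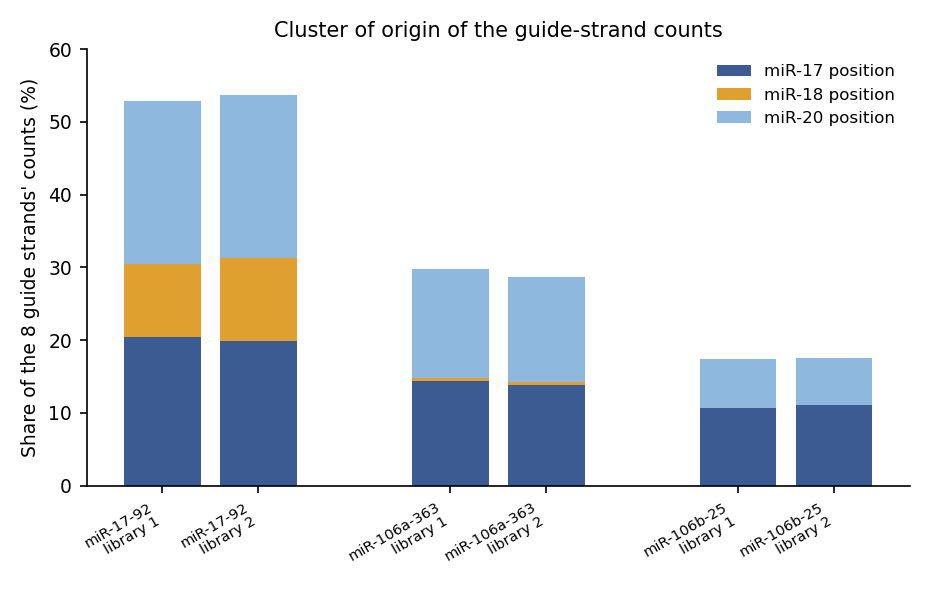
Percentage of the counts of all 8 guide strands that came from each cluster, by replicate library, with bars stacked by position in the cluster. miR-17-92 gave 52.9% and 53.7%, and the miR-18 segment is visible there but is a thin line in miR-106a-363.

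At the miR-17 position, miR-17-5p exceeded miR-106a-5p 1.42-fold in replicate 1 (exact counting interval 1.41 to 1.43) and 1.44-fold in replicate 2 (1.43 to 1.45). It exceeded miR-106b-5p 1.93-fold and 1.80-fold. At the miR-20 position, miR-20a-5p exceeded miR-20b-5p 1.497-fold in replicate 1 (1.48 to 1.51) and 1.55-fold in replicate 2 (1.54 to 1.56). It exceeded miR-93-5p 3.32-fold and 3.42-fold. The ratio of miR-17-92 to miR-106a-363 on the 5p arm was 1.43 ± 0.015 at the miR-17 position and 1.52 ± 0.038 at the miR-20 position. The gap between these ratios was larger than either SD. The ratio of miR-17-92 to miR-106b-25 was 1.87 ± 0.088 at the miR-17 position and 3.37 ± 0.070 at the miR-20 position. Within clusters, miR-20a-5p over miR-17-5p was 1.11 ± 0.021 and miR-20b-5p over miR-106a-5p 1.04 ± 0.0048, whereas miR-93-5p over miR-106b-5p was 0.612 ± 0.030. An exact two-sided sign-flip permutation test of each ratio gave p = 0.5, the smallest that 2 libraries allow, so no ratio could pass a test.

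The miR-18 position departed from both others. miR-18a-5p exceeded miR-18b-5p 23.5-fold in replicate 1 (exact interval 22.5 to 24.4) and 24.4-fold in replicate 2 (23.7 to 25.1), against 1.42-fold to 1.55-fold for the other paralogs of the same 2 clusters. Within miR-17-92, miR-17-5p exceeded miR-18a-5p 2.05-fold and 1.75-fold. Within miR-106a-363, miR-106a-5p exceeded miR-18b-5p 33.8-fold and 29.6-fold. The low level of miR-18b-5p thus set it apart from the strands encoded on either side of it. miR-18a-5p and miR-18b-5p differ only in the last bases, and reads cut short before base 18 would match both.

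The hairpins of miR-18a and miR-18b are shown because their arms were used differently. Capitals mark the 5p and then the 3p strand of the RefSeq annotation, miR-18a at chr14:115043851-115043946 on the plus strand and miR-18b at chrX:52742331-52742413 on the minus strand.
miR-18a hairpin: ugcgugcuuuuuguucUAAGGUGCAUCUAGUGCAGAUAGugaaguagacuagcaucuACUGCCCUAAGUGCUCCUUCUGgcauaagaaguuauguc
miR-18b hairpin: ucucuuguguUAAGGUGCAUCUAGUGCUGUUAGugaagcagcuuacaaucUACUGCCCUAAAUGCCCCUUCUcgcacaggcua

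Of the miR-18a counts over both arms, 93.8% in replicate 1 and 94.8% in replicate 2 lay on the 5p arm. For miR-18b the 5p arm held 26.7% (Wilson interval 25.8 to 27.6) and 31.7% (30.9 to 32.4). The strand that the name list calls the guide was thus the minor strand of the miR-18b hairpin in both replicates, with 2437 counts against 6703 on the 3p arm in replicate 1 and 4729 against 10205 in replicate 2. Its 5p share differed by 5.00 percentage points between replicates, more than the median of 0.401 over the 260 hairpins that reached 100 counts over both arms in each library. The 5p shares of miR-17, miR-93, miR-18a, miR-106b and miR-106a also differed by more than that median, at 2.67, 1.91, 1.05, 1.04 and 0.458 points. Those of miR-20b and miR-20a differed by less, at 0.271 and 0.0457 points. With both arms summed, miR-18a exceeded miR-18b 6.67-fold and 8.13-fold, a smaller gap than on the 5p arm. On the 3p arm alone the order turned round, with miR-18a-3p at 0.564 and 0.613 times miR-18b-3p. The annotated miR-18b-3p starts with U, 1 base upstream of the A that starts miR-18a-3p, so the 2 strands have different seeds.

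The other hairpins favoured the 5p arm. miR-20a had 96.9% ± 0.032 of its counts on that arm, miR-106a 96.8% ± 0.32 and miR-18a 94.3% ± 0.74. miR-20b stood at 87.4% ± 0.19, miR-106b at 85.7% ± 0.74 and miR-93 at 84.1% ± 1.4. miR-17 was the exception among the abundant hairpins, with 63.5% in replicate 1 and 60.9% in replicate 2, since miR-17-3p alone held 0.551% ± 0.023 of the library. In all, 3 of the 8 hairpins had at least 90% of their counts on the 5p arm, against a background of 33.8% over the 260 hairpins. More 3p than 5p counts were found for 1 of the 8, against a background of 50.8%. The 8 hairpins were taken for their listed 5p strands, so a lean to that arm is built into the choice. With both arms summed, miR-17 held 1.46% ± 0.012 of the library and miR-20a 1.03% ± 0.020, so their order was the opposite of that of the guide strands. miR-17 over miR-106a was 2.17 and 2.29 with both arms, larger than on the 5p arm, and miR-20a over miR-20b was 1.35 and 1.40, smaller than on the 5p arm.

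**Figure D3:**
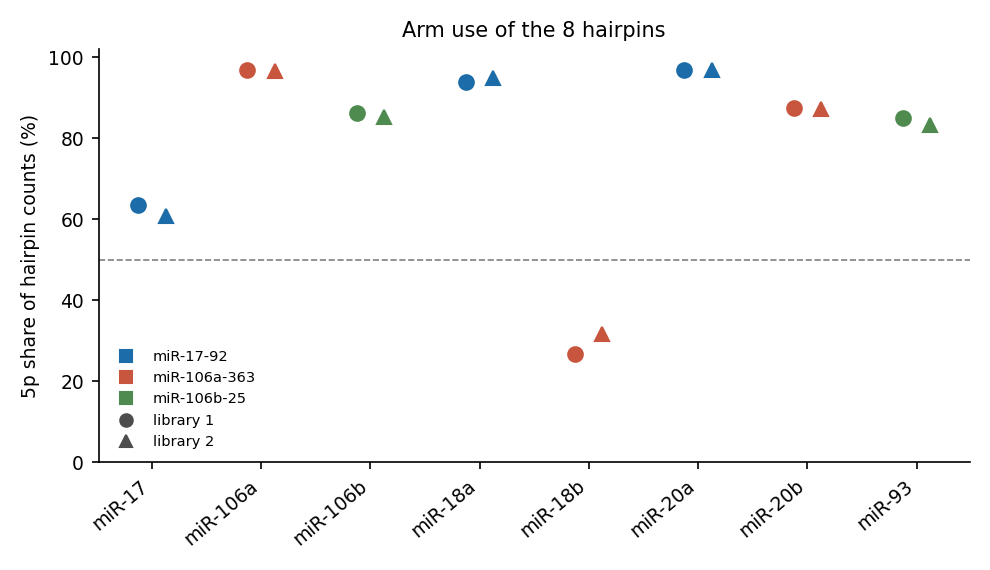
Percentage of the counts of each hairpin that lay on the 5p arm, by replicate library (circles and triangles), coloured by cluster, with a dashed line at equal use. miR-18b lies below the line at 26.7% and 31.7%, miR-17 at 63.5% and 60.9%, and the other 6 between 83.2% and 97.0%.

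Summed by seed, the miR-17 group had a share of 4.07% (Wilson interval 4.06 to 4.08) in the first replicate and of 3.90% (3.89 to 3.91) in the second. It ranked 7th in both among 1398 seed families built from the 1679 names with a RefSeq sequence. Those names held 92.6% and 91.9% of the counts, and the 299 names with no entry are in no family. None of those names alone exceeded the miR-17 group by mean share, but 5 exceeded the miR-18 family, so the places hold among the families built only. The family next above, that of miR-16-5p and miR-15, which restrains the cell cycle, held 5.49% ± 0.67. The next below, miR-291a-5p with miR-291b-5p, held 3.49% ± 0.39. The gaps to both neighbours exceeded the larger SD, and the miR-17 group itself varied less than either, at ± 0.12. The other name with its seed, miR-6383, had 0 counts in both replicates, which allows up to 2.39e-05% and 1.31e-05% (3 counts). The group was spread over several strands: miR-20a-5p gave 25.2% ± 0.28 of it, miR-17-5p 22.8% ± 0.18, miR-20b-5p 16.5% ± 0.22, miR-106a-5p 15.9% ± 0.29, miR-106b-5p 12.2% ± 0.48 and miR-93-5p 7.47% ± 0.072. As counted, the 2 X-linked and the 2 Mcm7 intronic strands together outweighed those of miR-17-92, which gave 47.9% ± 0.10 of the group. That SD leaves out the uncertain division of reads between miR-17-5p and miR-106a-5p, which lie on opposite sides, so this order is not settled.

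The miR-18 family held 0.475% and 0.524%, or 0.499% ± 0.035, and took the 24th place in both replicates. It lay between the miR-29 family at 0.564% ± 0.066 and miR-293-3p at 0.446%, and its distance to the miR-29 family was less than the SD of that family. miR-18a-5p made up nearly all of it, so the miR-18 seed came from 1 cluster while the miR-17 seed came from 3.

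**Figure D4:**
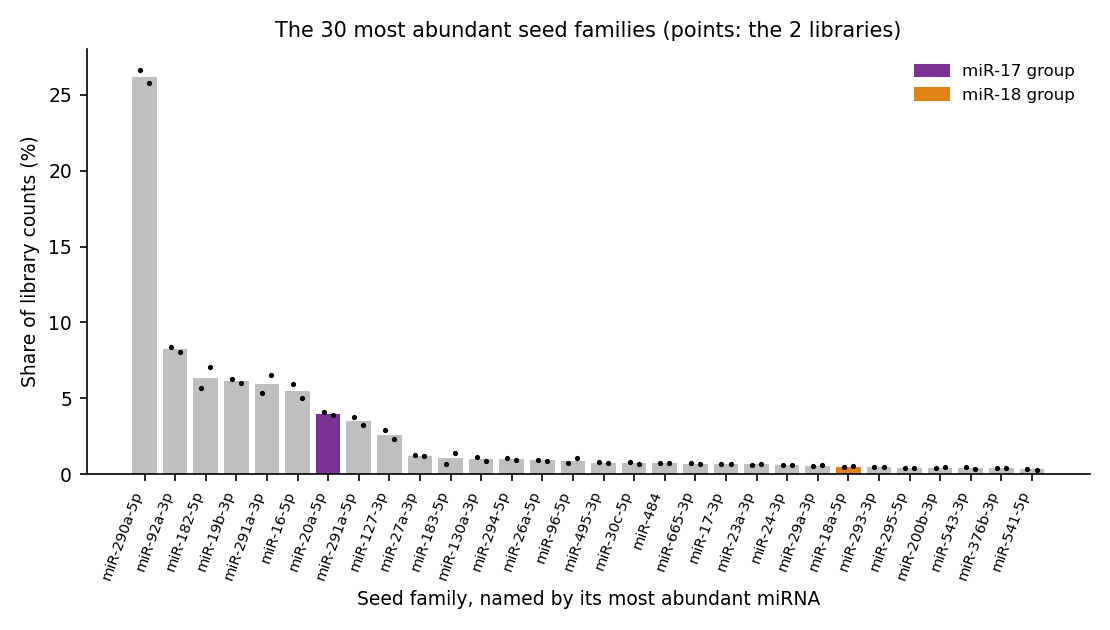
Mean share of the library counts (percent, linear axis) of the 30 most abundant seed families, each named by its leading miRNA, with points for the 2 replicate libraries. The miR-17 group, led by miR-20a-5p, is 7th at 3.99%, and the miR-18 family, led by miR-18a-5p, is 24th at 0.499%.

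The seed of the miR-17 group holds AAGUGC at bases 3 to 8, and several 3p strands of the miR-290 and miR-302 clusters, which mark pluripotent cells, hold the same 6 letters at bases 2 to 7. Strands with AAGUGC at bases 3 to 8 held 4.07% and 3.90% of the counts, all of it from the 6 guide strands. Strands with it at bases 2 to 7, led by miR-291a-3p, miR-295-3p and miR-294-3p, held 5.37% and 6.53%. The miR-17 group was thus at 0.758 times the other set in replicate 1 and at 0.597 times in replicate 2. The difference exceeded the SD of both sums, 0.12 and 0.81. The listed 3p strands miR-292a-3p, at 1.42% ± 0.22, and miR-302a-3p, at 0.0141% ± 0.0026, had no sequence entry and are in neither sum. With these 2 strands of the same clusters added to the bases 2 to 7 set, a choice made after seeing the data, that set held 6.97% and 7.80%, and the miR-17 group was at 0.584 and 0.4996 times it.

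The guide strands varied little between replicates. Their shares in replicate 2 were 0.933 to 1.105 times those in replicate 1, and 5 of the 8 were lower in replicate 2. None of the 8 differed at least 1.2-fold, whereas 30.7% of the 427 miRNAs that reached 100 counts in both libraries did. That share was 44.0% where 10 counts were enough and 29.1% where 1000 were required. The median absolute log2 ratio was 0.09 over the 8 and 0.17 over the 427. miR-18a-5p moved most, at 1.105-fold higher in replicate 2, and miR-106b-5p least, at 1.01-fold. In the same clusters, miR-19a-3p, made by miR-17-92, held 1.40% ± 0.039 and moved 0.962-fold, and miR-25-3p, of miR-106b-25, held 0.192% ± 0.0086 and moved 0.939-fold. miR-19b-3p and miR-92a-3p, names to which both larger clusters contribute, held 4.74% ± 0.14 and 7.24% ± 0.30. miR-363-3p, the last strand of the X-linked cluster, held 0.250% ± 0.048 and was 1.31-fold higher in replicate 2, where miR-106a-5p and miR-20b-5p were at 0.933 and 0.939 times.

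**Figure D5:**
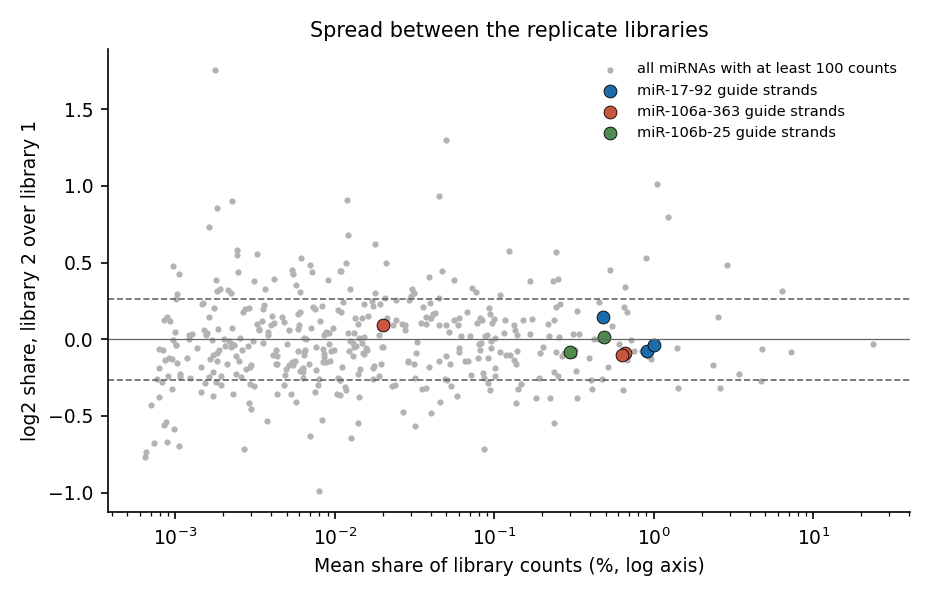
log2 ratio of the share in replicate 2 over replicate 1 against the mean share (percent, log axis) for the 427 miRNAs that reached 100 counts in both libraries (grey) and the 8 guide strands (coloured by cluster). Dashed lines mark 1.2-fold; all 8 guide strands lie between them, and 30.7% of the 427 lie on or outside them.

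The target libraries bear on genes that these miRNAs are known to repress in mouse or human cells. Of 22 listed targets of the miR-17 group, 8 (36.4%) had at least 1 of the 3292 peaks in their span, against a background of 8.30% of 21900 protein-coding genes, and of 13 listed targets of miR-18, 2 (15.4%) had one. The lists were chosen with earlier results of these data known and were not matched for expression or gene length. Whether the listed genes exceed the background was therefore not tested. The peaks carry no value per replicate, and no seed match was searched, so no peak is tied to a miRNA. Distances below run from the peak midpoint to the downstream end of the gene span, read along the peak strand. Cdkn1a, the gene of p21, an inhibitor of cyclin-dependent kinases, had 2 peaks, 584 and 180 nt from that end on chromosome 17. Bcl2l11, which encodes the pro-apoptotic protein BIM, had 2 peaks at 2145 and 165 nt. Ulk1, a kinase gene of autophagy initiation, had 4 peaks, of which the nearest lay at 1125 nt and the farthest at 24686 nt. The transcription factor genes E2f3, Stat3 and Hif1a and the cyclin gene Ccnd1 had 1 peak each, at 69194, 2754, 37125 and 4125 nt. For miR-18, Notch2, a receptor gene, and Atm, a DNA damage kinase gene, had 1 peak each, at 37253 and 78192 nt. No peak overlapped any of the 8 hairpins. Mcm7, whose span holds the hairpins of miR-106b and miR-93, had 0 peaks. Mir17hg, the host gene of miR-17-92, also had 0, but its annotated span starts 126 bases past the end of the miR-20a hairpin and holds none of the 3 member hairpins of that cluster.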

How the data were processed

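RNA from the captured Spy3-AGO2 was, per the labels' protocols, recovered from a gel slice, ligated to adapters with random bases, amplified and sequenced as single-end reads. For each miRNA library the authors deposited counts of reads per mature name, not normalized. A last row naming no miRNA held 0 counts and was left out. The build mm10 and the tools Bowtie2 2.4.2, STAR 2.5.2a, deepTools 3.1.3, DESeq2 1.36.0, UMI-tools and cutadapt 2.10 stand in the submitters' processing notes, without their roles. No source used here says whether molecular identifiers were collapsed or how peaks were called. The score in the deposited peak list was 0 for every peak and was not used.

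From the counts, shares of the library total, Wilson intervals (95%), exact intervals of ratios, arm shares and sums by seed (bases 2 to 8) were computed. Depth, 12562727 and 22908172 counts, put 3 counts at 2.39e-05% and 1.31e-05%. The replicates differed by more than counting error (chi-square statistic 229192 on 676 degrees of freedom), so they were kept as 2 samples. With 1 group of 2 miRNA libraries no model with a contrast could be fitted. By its midpoint, each peak was placed in RefSeq gene spans of GRCm38.p6, irrespective of gene strand. Alternatives were TMM factors from edgeR 4.0.16, median-of-ratios scaling, other totals and minimum counts, each replicate alone, and peak overlap. The members, lists and comparisons were chosen with earlier results of these data known. Named were the members, their other arms, the listed miRNAs, the miRNAs and seed families next to them by share, further names with their seeds, and listed genes with a peak, of which 1 is counted but not reported here. Single listed strands of let-7 and miR-302 are given within their sums only, apart from miR-302a-3p. The 1.2-fold step between replicates and the coverage of the Wilson intervals were tested on simulated data. Those data were drawn with counting error only, which is less than the spread between the real replicates. Python 3.11.15, numpy 2.4.6, pandas 2.3.3, scipy 1.17.1, matplotlib 3.10.9 and R 4.3.3 were used.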

Additional observations from a re-analysis of the deposited data

How the results depend on the processing

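With the miR-290a-5p counts left out of the library totals, the mean shares became 5.23% for the miR-17 group, 0.655% for the miR-18 pair, and 3.13%, 1.72% and 1.03% for the guide strands of miR-17-92, miR-106a-363 and miR-106b-25, a move that the smaller total brings by construction. The share of each of the 8 guide strands rose likewise, and their order was the same. Under TMM scaling, median-of-ratios scaling and a total over miRNAs that reached 10 counts in both libraries, these sums and shares moved by less than their SD. None of the 8 differed 1.2-fold between replicates under either scaling, while the share of all miRNAs that did was 29.7% with TMM and 29.98% with median-of-ratios scaling, 44.0% with a minimum of 10 counts and 29.1% with a minimum of 1000. Without either replicate, each summed or single share, paralog ratio between clusters, division over clusters and arm share of the 8 was that of the remaining replicate, which lies within 1 SD of the mean by construction. Counting peaks by any overlap left 8 and 2 listed target genes with a peak. No paired analysis was possible because the miRNA counts form 1 group. With 2 strands that lack a sequence entry added, the mean ratio of AAGUGC at bases 3 to 8 to bases 2 to 7 became 0.542, against 0.678. Every SD rests on 2 libraries, and the smallest count behind a guide strand was 2437, for miR-18b-5p.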

Other observations

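The 3p strands of miR-17, miR-20b and miR-106a share a seed of their own, CUGCAGU, and together held 0.652% of replicate 1 and 0.682% of replicate 2, or 0.667% ± 0.021 (SD, n = 2). That is more than the miR-18 guide strands, at 0.499% ± 0.035. miR-17-3p gave most of it, with 67168 and 129894 counts, while miR-20b-3p had 12165 and 21348 and miR-106a-3p had 2565 and 5050. miR-17-3p exceeded miR-106a-3p 26.2-fold and 25.7-fold, although the guide strands of the same 2 hairpins stood at 1.42-fold and 1.44-fold.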
